A study of Mus musculus with 7 samples.

Results

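The colony-stimulating factor (CSF) receptors and ligands were described in retinal microglia (rMG) of Irf8 KO mice with and without laser injury of the retina. The group was fixed by name and holds 7 of the 40743 genes in the deposited table. Csf1r, Csf2ra, Csf2rb, Csf2rb2 and Csf3r are receptor genes, and Csf1 and Il34 are ligand genes. All 7 were found by their symbols. The choice was made by name, but earlier results of these data were known when it was made.

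All 7 libraries were labelled Irf8 KO, 3 from rMG of mice without laser and 4 from rMG of mice with laser. The mice were Irf8-/- Cx3cr1GFP/+ on a C57BL/6J background devoid of the Crb1 mutation, so by their description all libraries, the unlasered ones included, share the Irf8 deletion and a GFP allele in Cx3cr1. Microglia of the lasered mice were isolated 7 days after laser-induced choroidal neovascularisation (CNV), a model in which laser burns make vessels grow from the choroid towards the retina. The unlasered mice were adult, and the age of the lasered mice was not given in the sources used here. Each library was made from about 10000 cells, sorted from 3 to 4 pooled mice by the gate CD45low CD11b+ Cx3cr1GFP/+ Ly6C- Ly6G-. Only central tissue, 70% of each retina, was sorted after laser, so laser injury and the part of the retina cannot be told apart. Libraries of Irf8 wild-type mice were not analysed here, and all comparisons are within the Irf8 KO genotype.

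CSF1R is a receptor tyrosine kinase on which microglia depend for survival, and CSF1 and IL-34 are its ligands. The receptor for GM-CSF works differently: a ligand-binding alpha chain, encoded by Csf2ra, joins a common beta chain, encoded by Csf2rb, which is shared with the receptors for IL-3 and IL-5 and signals through JAK2 and STAT5. Mice carry a second beta chain gene, Csf2rb2, whose product serves the IL-3 receptor. Csf3r encodes the receptor for G-CSF, best known from neutrophils.

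Without laser, libraries held 20427558 to 36022954 reads, and with laser 37133297 to 45919042. Levels are given as CPM, the reads of a gene scaled by the total of its library, and 3 reads, the smallest level considered here, corresponded to between 0.0653 and 0.147 CPM. This floor covers counting error only. Irf8, the targeted gene, was listed at 530, 489 and 507 CPM in unlasered libraries 1, 2 and 3 and at 463, 465, 475 and 582 CPM in lasered libraries 1 to 4. Its reads were listed only jointly with Gm20388, a gene that overlaps it. Because Irf8 reads were present throughout, the libraries are named by their label. Transcripts of the sorted surface proteins were present in every library, with Ptprc (CD45) between 363 and 641 CPM and Itgam (CD11b) between 340 and 584 CPM. Transcripts of rod photoreceptors, which the gate should leave out, summed to 1900 to 18242 CPM over 12 markers without laser and to 299 to 945 CPM with laser. The sums over markers of Müller glia were 681 to 959 CPM without laser and 321 to 714 CPM with laser. Those of inner retinal neurons were 58.5 to 225 and 62.0 to 81.9 CPM, those of vessels 15.2 to 59.9 and 39.1 to 67.3 CPM, and those of the retinal pigment epithelium 21.1 to 37.2 and 18.1 to 29.6 CPM. Of the 8 tested genes of the gate and of pan-macrophage markers, limma, edgeR and DESeq2 called 0, with 1, 0 and 1 at an unadjusted p under 0.05.

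Of the CSF genes, Csf2ra, Csf2rb and Csf2rb2, the chains of the GM-CSF and IL-3 receptors, were higher in lasered libraries, while Csf1r, Csf1 and Csf3r did not pass the test. In limma on log2(CPM + 1), 3 of the 6 CSF genes tested had an adjusted p under 0.05 (Benjamini-Hochberg, over all tested genes), all of them higher after laser. Of the 17496 genes tested, 6.93% were called in either direction, 3.86% higher and 3.07% lower. The groups did not overlap for the same 3 CSF genes, against 10.4% of all tested genes with every lasered library above every unlasered one. The median log2 fold change of all tested genes was -0.01, so the fold changes below are close to changes relative to the typical gene. All 6 CSF genes tested exceeded the filter of 1 CPM in each of the 7 libraries, and Il34 fell below it in each. In bulk samples of sorted cells, fewer cells of a type and less RNA per cell cannot be told apart. Nothing in the sources beyond the pooling of mice says how the libraries of a group were separated, so p-values measure the spread between these libraries.

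**Figure D1:**
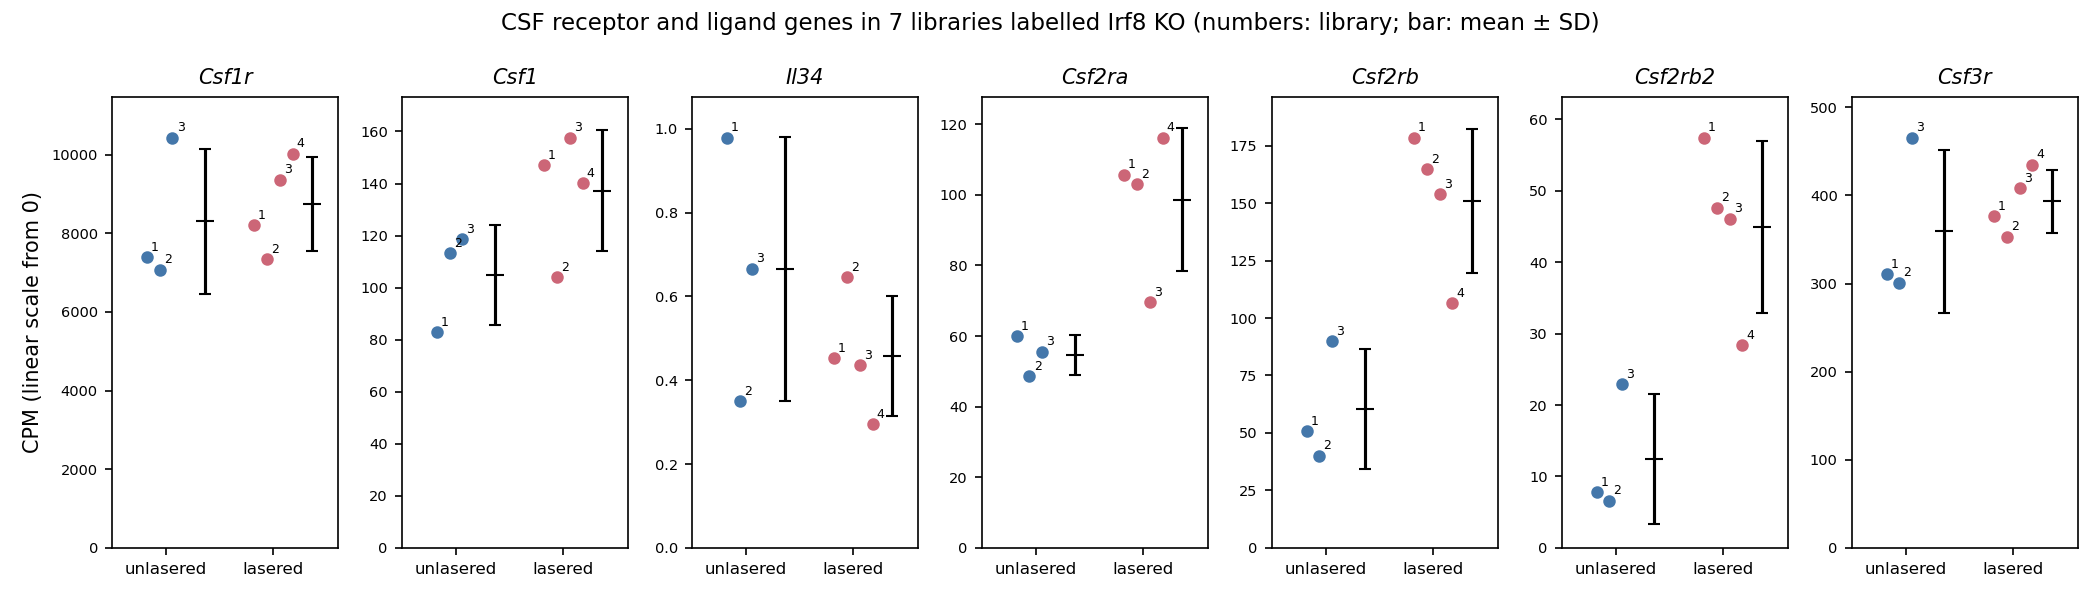
Levels in CPM (linear axes from 0, a different scale per gene) of the 7 CSF receptor and ligand genes in 3 unlasered (blue) and 4 lasered (red) libraries labelled Irf8 KO, numbered by library, with the mean ± SD beside each group. The groups are apart for Csf2ra, Csf2rb and Csf2rb2, where unlasered library 3 and lasered library 4 come nearest to each other for both beta chain genes, and they overlap for Csf1r, Csf1, Il34 and Csf3r.

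Csf1, the gene of the main CSF1R ligand (ENSMUSG00000014599, GRCm38 chromosome 3, 107741048 to 107760469, minus strand), was listed at 83.0, 113 and 119 CPM in unlasered libraries 1, 2 and 3 and at 147, 104, 158 and 140 CPM in lasered libraries 1 to 4. Lasered library 2 lay within the unlasered range and the other lasered libraries lay above it. The mean was 105 ± 19.2 CPM (SD, n = 3) without laser and 137 ± 23.3 CPM (SD, n = 4) with laser. The log2 fold change was 0.38 (SE 0.18, 95% confidence interval -0.03 to 0.80), with an adjusted p of 0.253 in limma. A rise of up to 1.74-fold is within this interval.

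Il34 (ENSMUSG00000031750, chromosome 8, 110741829 to 110805924, minus strand) encodes the other CSF1R ligand, which is known to be made mainly by neurons and keratinocytes. Its level was 0.979, 0.350 and 0.666 CPM in unlasered libraries and 0.453, 0.646, 0.436 and 0.296 CPM in lasered libraries, from 11 to 29 reads per library. All values were above the floor of 3 reads, the groups overlapped, and the gene was too low to be tested. Genes annotated on the opposite strand, Gm15894 and Gm15895, overlap its exons. The library kit named in the methods does not mark strand, so such reads cannot be assigned to one strand.

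Csf1r (ENSMUSG00000024621, chromosome 18, 61100598 to 61132149, plus strand) ranked 5 of the 40743 genes by its mean CPM without laser and 3 with laser. These ranks are not corrected for length. Per kb of exon, the means of Tyrobp (1931) and Fcrls (1730), both ranked lower by CPM, were above that of Csf1r (1438) without laser. The level was 7391, 7079 and 10435 CPM in unlasered libraries 1, 2 and 3, and 8214, 7344, 9363 and 10026 CPM in lasered libraries 1 to 4. The lowest and the highest value were both from unlasered libraries, so the lasered range lay inside the unlasered range. The means were 8301 ± 1854 CPM (SD, n = 3) and 8737 ± 1193 CPM (SD, n = 4). The log2 fold change was 0.09 (SE 0.16, 95% confidence interval -0.28 to 0.45, adjusted p = 0.801 in limma), which leaves room for a change between 0.823-fold and 1.37-fold. It was -0.018 without unlasered library 2. The values include reads listed jointly with Mir6983, a microRNA in an intron of Csf1r, and its 3′ end overlaps exons of Hmgxb3 on the opposite strand.

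Csf1r was also set against the genes of the surface proteins used for sorting, as the ratio of Csf1r to the geometric mean of Itgam and Ptprc (on CPM + 1), which does not depend on the library total. The ratio was 17.7, 19.0 and 17.0 in unlasered libraries and 15.6, 15.6, 15.9 and 19.8 in lasered libraries. Lasered libraries 1, 2 and 3 lay below all unlasered libraries and lasered library 4 above them. The log2 difference, lasered minus unlasered, was -0.11, with p = 0.4 in a two-sided exact permutation test over 3 and 4 libraries, for which the smallest possible p is 0.057. This design cannot reach 0.05.

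Csf2ra, the ligand-binding alpha chain of the GM-CSF receptor (ENSMUSG00000059326, chromosome 19, 61223957 to 61228429, minus strand), rose after laser. The level was 59.9, 48.6 and 55.5 CPM in unlasered libraries 1, 2 and 3, and 106, 103, 69.7 and 116 CPM in lasered libraries 1 to 4. Lasered library 3 was nearest to the unlasered libraries, and all 4 lasered libraries were above them. The difference on the log2 scale was 0.82 (SE 0.19, 95% confidence interval 0.40 to 1.24), a 1.76-fold difference, with an adjusted p of 0.0355 in limma. The call depended on single libraries: the adjusted p exceeded 0.05 without lasered library 1, 2 or 4 or without unlasered library 1, 2 or 3, with the highest value of 0.0981 without lasered library 1, and only the omission of lasered library 3 kept it, at 0.0287.

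Csf2rb, the common beta chain gene (ENSMUSG00000071713, chromosome 15, 78325752 to 78353847, plus strand), was listed at 50.8, 40.2 and 89.9 CPM in unlasered libraries 1, 2 and 3. In lasered libraries 1 to 4 it reached 178, 165, 154 and 106 CPM. Unlasered library 3 was the highest of its group and lasered library 4 the lowest of its group, and a gap remained between them. The log2 fold change was 1.37 (SE 0.27, 95% confidence interval 0.75 to 1.99), a 2.58-fold rise with an adjusted p of 0.0248 in limma.

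Csf2rb2, the beta chain gene of the IL-3 receptor (ENSMUSG00000071714, chromosome 15, 78282507 to 78305721, minus strand), showed the same order of libraries at a lower level. It was listed at 7.83, 6.63 and 22.9 CPM without laser and at 57.4, 47.6, 46.1 and 28.4 CPM with laser. This gave a log2 fold change of 1.93 (SE 0.39, 95% confidence interval 1.04 to 2.81), a 3.80-fold rise with an adjusted p of 0.0256 in limma. The adjusted p of Csf2rb and of Csf2rb2 stayed under 0.05 without lasered library 4 or unlasered library 3, and rose above it without any one of lasered libraries 1, 2 and 3 or unlasered libraries 1 and 2, up to 0.0734 for both genes without lasered library 2. Without unlasered library 2, the log2 fold changes were 1.12 for Csf2rb and 1.62 for Csf2rb2.

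The 3 calls were also made by edgeR and DESeq2 on the recovered reads. edgeR gave adjusted p-values of 0.0315 for Csf2ra, 0.0245 for Csf2rb and 0.0383 for Csf2rb2, and DESeq2 gave 8.0e-04, 4.8e-05 and 7.9e-05. None of these genes met the thresholds of the study's methods, a log2 fold change over 1.5 with a mean of at least 100 in a group, applied here with the adjusted p: Csf2ra and Csf2rb were under the fold threshold, and the mean of Csf2rb2 was 44.9 ± 12.1 CPM (SD, n = 4) with laser. For comparison, 0.109% of all tested genes met them as higher after laser.

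**Figure D2:**
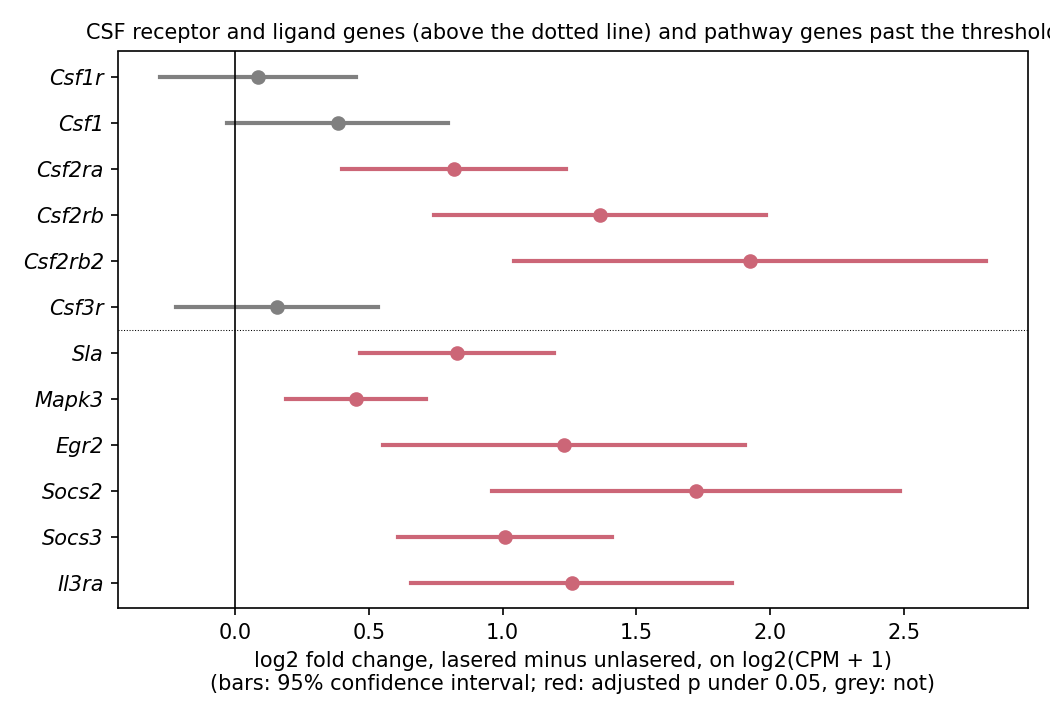
Log2 fold change, lasered minus unlasered, on log2(CPM + 1), with 95% confidence intervals from limma, for the 6 tested CSF genes (above the dotted line) and for the pathway genes with an adjusted p under 0.05. Red marks an adjusted p under 0.05 and grey the others. For Egr2, Socs2 and Il3ra, lasered libraries alone met the filter. The intervals of Csf2ra, Csf2rb and Csf2rb2 lie above 0, and those of Csf1r, Csf1 and Csf3r include 0.

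Since Csf2rb and Csf2rb2 are near-identical copies next to each other on chromosome 15, reads from one can map to the other, and their values are uncertain to that extent. Over 2626 aligned coding bases of 1 transcript each (GENCODE M21), 95.4% were identical. Of all stretches of 50 bases in the coding sequence, 26.0% for Csf2rb and 26.6% for Csf2rb2 were found in the other gene. The stretch that separates both genes best is shown first, with capitals at the positions that differ, 22 of 120. It spans exons 4 and 5, from coding base 309 to 428 of Csf2rb (chr15:78338898-78340471, plus strand, GRCm38, intron included) and from 312 to 431 of Csf2rb2 (chr15:78292838-78294433, minus strand).
Csf2rb: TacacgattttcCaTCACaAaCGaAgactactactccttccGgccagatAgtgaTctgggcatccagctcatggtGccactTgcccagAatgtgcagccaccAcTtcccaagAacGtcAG
Csf2rb2: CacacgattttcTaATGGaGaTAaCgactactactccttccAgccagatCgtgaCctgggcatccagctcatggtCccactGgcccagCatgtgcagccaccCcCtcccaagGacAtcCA
Reads that cover these positions can be assigned to 1 of the genes.

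The longest run without any difference had 242 bases and lay in exon 14 of both genes, at coding bases 2083 to 2324 (chr15:78348577-78348818, plus strand, for Csf2rb, and chr15:78284630-78284871, minus strand, for Csf2rb2). Reads that lie wholly inside it cannot be assigned. The capitals mark the hairpins of Mir7676-2 in Csf2rb and Mir7676-1 in Csf2rb2, which are identical, 62 bases long and inside the coding exon.
Both genes: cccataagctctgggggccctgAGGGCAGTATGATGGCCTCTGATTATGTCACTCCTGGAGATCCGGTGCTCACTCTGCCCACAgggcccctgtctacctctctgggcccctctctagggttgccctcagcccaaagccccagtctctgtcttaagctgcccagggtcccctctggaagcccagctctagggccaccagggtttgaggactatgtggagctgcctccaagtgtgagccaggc
Reads listed jointly for Mir7676-1 and Csf2rb2 amounted to between 0.343 and 2.13 CPM per library, and the Csf2rb value includes reads listed jointly with Mir7676-2. The share of Csf2rb2 in the summed CPM of both genes was 13.4%, 14.2% and 20.3% in unlasered libraries and 24.3%, 22.4%, 23.1% and 21.1% in lasered libraries. All lasered libraries were above the unlasered ones in this share. Across the 7 libraries the log2 levels of both genes had a Pearson r of 0.996, a description over libraries that share depth and cell composition.

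The balance of signalling chain to ligand-binding chain was given by the ratio of Csf2rb to Csf2ra. It was 0.851, 0.830 and 1.61 in unlasered libraries and 1.68, 1.59, 2.19 and 0.916 in lasered libraries. The groups overlapped, with unlasered library 3 and lasered library 4 each apart from the rest of its group. The log2 difference was 0.55 (exact permutation test, two-sided, p = 0.17, smallest possible 0.057).

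Promoter sequences were matched for Csf1, Csf2ra, Csf2rb2 and Csf3r, and the 250 bases before the start are shown for those that rose (RefSeq, GRCm38.p6). Both strands were searched for GAGGAA, a core that the microglial factor PU.1 can bind, and for TTCNNNGAA, the core of STAT sites. They were also searched for TTGNNNCAA, which is assigned to no factor here, and for TGANTCA, of AP-1 sites. Of 32851 promoters, 23.3%, 7.02%, 5.02% and 6.75% held these letters. Capitals mark matches. The Csf2ra promoter (chr19:61228419-61228668, minus strand) had 2 adjacent matches to GAGGAA, starting 14 and 8 bases before the RefSeq start. In GENCODE the gene begins at 61228429, inside this stretch, so both matches reach into the annotated gene. The Csf2rb2 promoter (chr15:78305722-78305971, minus strand) had 1 match to GAGGAA on the other strand, 167 bases before the start, and 1 to TTCNNNGAA, 15 bases before it.
Csf2ra: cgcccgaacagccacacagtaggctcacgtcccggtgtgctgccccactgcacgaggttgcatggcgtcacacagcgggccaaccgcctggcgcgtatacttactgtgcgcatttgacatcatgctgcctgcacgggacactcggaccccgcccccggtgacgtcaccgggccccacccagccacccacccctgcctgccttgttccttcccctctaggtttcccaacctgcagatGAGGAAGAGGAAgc
Csf2rb2: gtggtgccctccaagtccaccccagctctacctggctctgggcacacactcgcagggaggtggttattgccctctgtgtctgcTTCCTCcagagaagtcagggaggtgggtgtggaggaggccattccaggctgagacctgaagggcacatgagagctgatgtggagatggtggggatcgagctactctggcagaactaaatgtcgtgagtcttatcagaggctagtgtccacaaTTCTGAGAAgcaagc
The Csf3r promoter held 1 match to GAGGAA and 1 to TTGNNNCAA, and the Csf1 promoter none of these letters. That of Csf3r also reaches into its annotated gene, which begins at 126024550. Such matches describe the sequence and are no evidence of binding.

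Levels of markers of other myeloid cells are given beside those of the beta chain genes. The summed level of 8 dendritic cell markers was between 18.9 and 41.5 CPM in unlasered libraries, and 136, 146, 35.4 and 31.5 CPM in lasered libraries 1 to 4. The high values of lasered libraries 1 and 2 were led by Ccr7, at 74.8 and 68.5 CPM. Of the 6 of these 8 genes that could be tested, limma called 0, with 2 at an unadjusted p under 0.05, edgeR called 1 and DESeq2 called 2. Of all 17496 tested genes, limma called 1213, edgeR 1266 and DESeq2 2318. For Cd209a, Ccr7 and Flt3, lasered libraries alone met the filter, and Dpp4 met it only through lasered and unlasered libraries together. These counts are therefore no independent support for a difference. The summed level of 8 monocyte markers was between 111 and 393 CPM without laser and between 275 and 979 CPM with laser. Fn1, which other macrophages express too, made up 41.1, 65.6 and 288 CPM of this sum without laser and 776, 525, 593 and 248 CPM with laser. Ccr2 was listed at 5.63, 6.37 and 14.2 CPM without laser and at 81.5, 128, 19.7 and 7.57 CPM with laser. Each gene of both marker lists exceeded 3 reads in at least 1 library.

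Lasered library 3, with Csf2rb at 154 CPM, had a dendritic marker sum inside the unlasered range. Its monocyte marker sum of 660 CPM and its Ccr2 level were above all unlasered libraries. Zbtb46 made up much of the dendritic sums, at 21.4, 14.9 and 36.6 CPM without laser and 23.5 CPM in lasered library 3. In lasered library 3, Cd209a at 2.87 CPM and Ccr7 at 5.34 CPM were above all unlasered libraries. Unlasered libraries had at most 0.098 CPM of Cd209a and 4.16 CPM of Ccr7. No other dendritic marker was above all unlasered libraries in lasered library 3. Lasered library 4, with Csf2rb at 106 CPM, had both sums inside the unlasered ranges. Without lasered libraries 1 and 2, a choice made after seeing the data, the log2 fold changes were 0.71 for Csf2ra, 1.16 for Csf2rb and 1.67 for Csf2rb2, with adjusted p-values of 0.266, 0.196 and 0.193 over 3 and 2 libraries. In that comparison limma called 24 genes in all. The part of other myeloid cells in these results was not tested further.

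**Figure D3:**
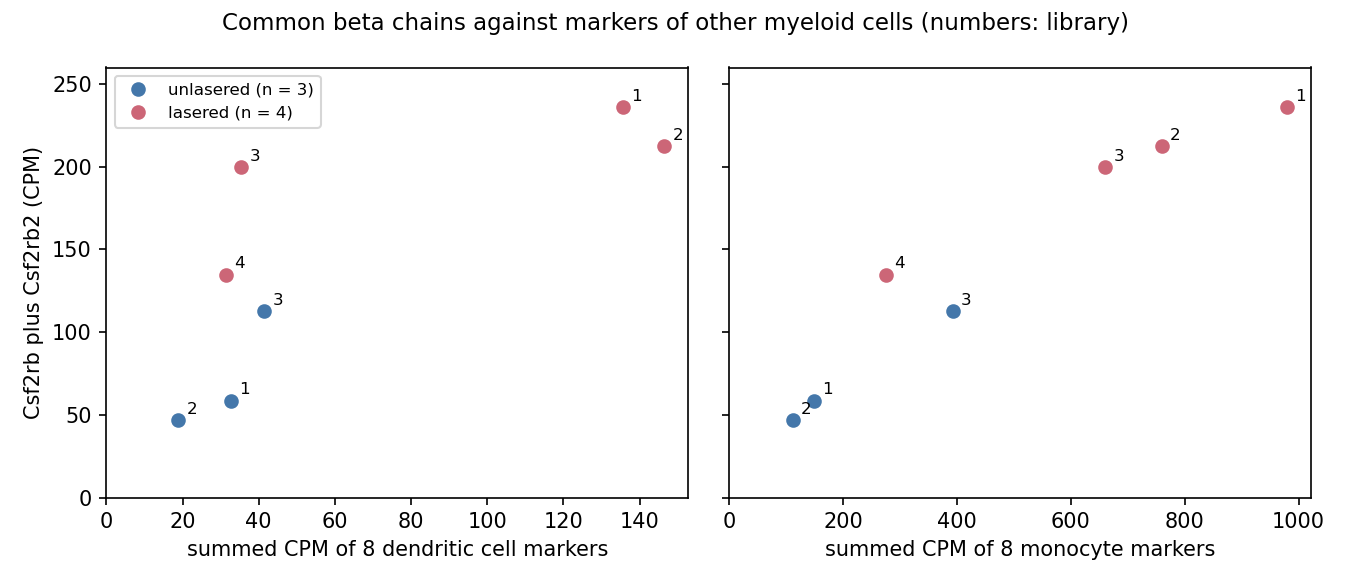
Summed CPM of Csf2rb and Csf2rb2 against the summed CPM of 8 dendritic cell markers (left) and of 8 monocyte markers (right) in 3 unlasered (blue) and 4 lasered (red) libraries, numbered by library. Lasered libraries 1 and 2 stand apart by their dendritic markers, at 136 and 146 CPM, and lasered library 3 has dendritic markers at 35.4 CPM and monocyte markers at 660 CPM.

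Csf3r, the G-CSF receptor gene (ENSMUSG00000028859, chromosome 4, 126024550 to 126044440, plus strand), was listed at 311, 301 and 466 CPM in unlasered libraries and at 377, 353, 409 and 435 CPM in lasered libraries. The lasered range lay inside the unlasered range, as for Csf1r. The log2 fold change was 0.16 (SE 0.17, 95% confidence interval -0.22 to 0.53, adjusted p = 0.640 in limma).

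Markers of neutrophils, the cells best known for Csf3r, were low. The sum of 12 neutrophil markers was between 0.934 and 13.5 CPM without laser and between 2.77 and 21.9 CPM with laser, and Ly6g, Ngp, Retnlg and Mpo were at or under 3 reads in every library. Cxcr2 had 3, 1 and 2 reads in unlasered libraries and 242, 226, 593 and 39 reads in lasered libraries, and Mmp8 had 1, 0 and 2 reads and 116, 257, 79 and 33 reads. Both passed the filter through the lasered libraries alone, so no test is given for them. Across the 7 libraries Csf3r followed Csf1r, with a Pearson r of 0.959 on the log2 scale, as a description. The Csf1r to Csf3r ratio, per kb of exon, was 14.9, 14.7 and 14.0 in unlasered libraries and 13.6, 14.3 and 14.4 in lasered libraries 1, 3 and 4, with the lowest value in lasered library 2.

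Levels of different genes were compared per kb of annotated exon. Where reads were listed jointly, counted regions reached into introns, so these values are approximate. Without laser, Csf1r was at 1438 ± 321 CPM per kb (SD, n = 3), and Csf3r followed at 99.6 ± 25.6. Csf1 at 19.9 ± 3.64 and Csf2ra at 19.0 ± 1.99 did not differ beyond their spread. Csf2rb was at 8.28 ± 3.60, Csf2rb2 at 2.63 ± 1.91 and Il34 at 0.340 ± 0.160 CPM per kb. Csf1r was therefore between 57.1 and 81.4 times as abundant per kb as its ligand Csf1 in these libraries.

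With laser the order of the first pair stayed, with Csf1r at 1513 ± 207 CPM per kb (SD, n = 4) and Csf3r at 109 ± 9.91. Csf2ra was next at 34.4 ± 7.01, and Csf1 at 26.0 ± 4.41 and Csf2rb at 20.7 ± 4.31 followed, with overlapping ranges among Csf2ra, Csf1 and Csf2rb. Csf2rb2 reached 9.47 ± 2.55 and Il34 0.234 ± 0.0734 CPM per kb. Between the groups, the unlasered and lasered ranges of Csf1r, Csf3r, Csf1 and Il34 overlapped on this scale too. Csf1r was between 51.1 and 65.4 times as abundant per kb as Csf1 in the lasered libraries.

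**Figure D4:**
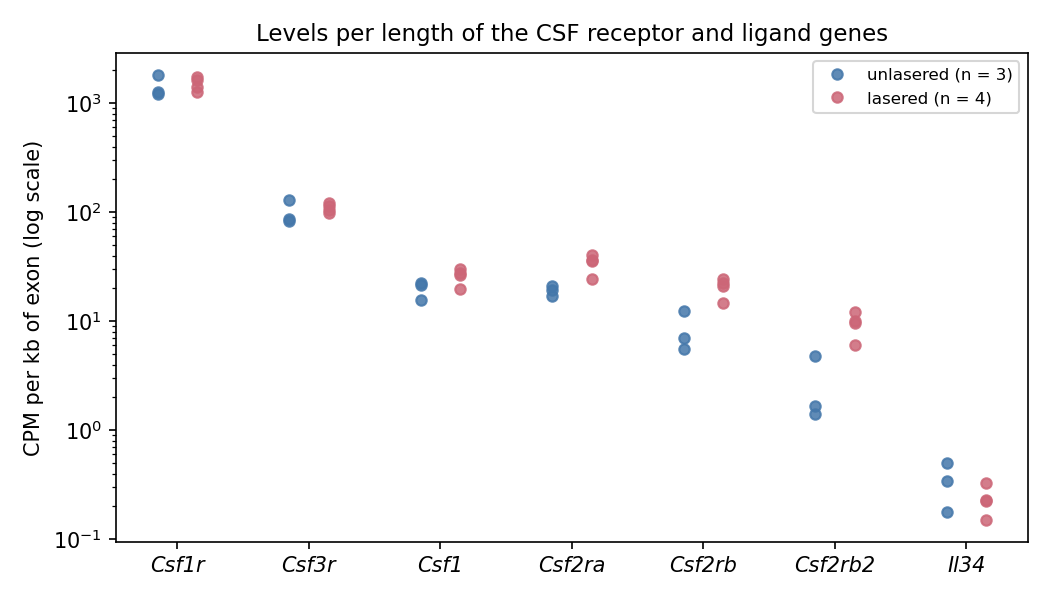
CPM per kb of annotated exon (log axis) of the CSF genes in order of their unlasered mean, each point 1 library, 3 unlasered (blue) and 4 lasered (red). Csf1r lies above all others, at 1226 to 1807 CPM per kb, Il34 lies lowest, and the columns of Csf2ra, Csf2rb and Csf2rb2 are shifted up with laser.

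The genes around the receptors were described from lists of the pathway. Of 25 genes that carry CSF1R and DAP12 signals (adaptors, kinases and phosphatases), 2 (8%) were higher. The other 23 did not pass the test. Of all tested genes, 6.93% were called in either direction and 3.86% were called higher. The list median was 0.19 on the log2 scale against -0.01 for all tested genes. Sla, a Src-like adaptor protein, rose from between 91.9 and 141 CPM without laser to between 186 and 228 CPM with laser (log2 fold change 0.83, SE 0.16, adjusted p = 0.0216). That call was lost, with an adjusted p of up to 0.0675, when lasered library 1, 2 or 3 was left out. Mapk3, the kinase ERK1, rose from between 99.4 and 121 CPM to between 145 and 155 CPM (0.45, SE 0.12, adjusted p = 0.0497 in limma). This call at the threshold was lost in edgeR, with an adjusted p of 0.0564, and whichever of the 7 libraries was left out, with adjusted p-values between 0.0595 and 0.148. Src itself was between 4.94 and 16.5 CPM without laser and between 23.0 and 30.0 CPM with laser, without overlap, but its adjusted p was 0.0520. Tyrobp, which encodes DAP12, had a log2 fold change of 0.21 and an adjusted p of 0.366.

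Of 13 transcription factors known to act on the Csf1r locus or on CSF1 responses, Egr2, an early response zinc finger factor, was higher. This is 7.69% of the list, against 6.93% of all tested genes called and 3.86% called higher, and the list median was 0.02. Egr2 was low, at 2.59, 1.05 and 0.555 CPM in unlasered libraries and at 4.78, 5.28, 4.27 and 3.10 CPM in lasered libraries. Lasered libraries alone met the filter for it, so its call and the share of 7.69% rest on that. The groups did not overlap, although the gap between 2.59 and 3.10 CPM was small. Its log2 fold change was 1.23 (SE 0.30, adjusted p = 0.0437 in limma), and edgeR, with an adjusted p of 0.0807, did not call it. Of the 7 fits that each left out 1 library, only the fit without unlasered library 1 called Egr2. With a pseudocount of 0.1 its log2 fold change was 1.79. Spi1, which encodes PU.1, was between 352 and 384 CPM without laser and between 304 and 381 CPM with laser, with an adjusted p of 0.611.

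Among 15 JAK, STAT and feedback genes of the GM-CSF, IL-3, IL-5 and G-CSF receptors, 14 could be tested and 2 were higher, both from the SOCS family of feedback inhibitors. This is 14.3% of those tested, against 6.93% of all tested genes called and 3.86% called higher, and the list median was 0.19. Socs2 was listed at 0.636, 1.14 and 1.19 CPM in unlasered libraries and at 5.82, 9.27, 6.27 and 2.53 CPM in lasered libraries. Lasered libraries alone met the filter for it, so its call and part of the share of 14.3% rest on that. The lowest lasered value, in library 4, was above every unlasered value. This was a log2 fold change of 1.72 (SE 0.34, adjusted p = 0.0224 in limma), and of 2.39 with a pseudocount of 0.1, 2.57 in edgeR and 2.58 in DESeq2. The call was lost, with an adjusted p of up to 0.0645, without lasered library 1, 2 or 3 or unlasered library 1.

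Socs3, an inhibitor of G-CSF receptor and gp130 signalling, was listed at 68.4, 59.9 and 92.3 CPM without laser and at 164, 166, 126 and 134 CPM with laser. The groups did not overlap, with a log2 fold change of 1.01 (SE 0.18, adjusted p = 0.0160 in limma). Among the libraries left out in turn, only the omission of lasered library 2 ended this call, at 0.0562. The transcripts of the signalling proteins did not pass the test in limma. Jak2 had a log2 fold change of 0.06 (adjusted p = 0.934), Stat5a 0.04 (0.925) and Stat5b -0.01 (0.992). Protein levels and their activation were not measured.

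Of the other cytokines and receptor chains, Il3ra, the alpha chain of the IL-3 receptor, was higher after laser. It was listed at 0.881, 1.99 and 0.722 CPM without laser and at 5.10, 4.90, 2.77 and 3.99 CPM with laser, so all lasered libraries were above the unlasered ones. Its log2 fold change was 1.26 (SE 0.27, adjusted p = 0.0287 in limma), and it was 1.80 in edgeR and in DESeq2. The adjusted p rose above 0.05, up to 0.0832, without lasered library 1, 2 or 4 or unlasered library 1 or 3, and was 0.0715 with no filter on low values. Il3ra was under 1 CPM in 2 unlasered libraries, and Egr2 and Socs2 in 1 each. In every lasered library these genes exceeded 1 CPM, so the lasered libraries alone, where the genes were high, met the filter. Their calls are given with that limit and are no independent support for a difference.

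The ligands of the beta chain receptors were listed as follows. Csf2, which encodes GM-CSF, and Il3 had 0 reads in all 7 libraries, which allows up to 0.147 CPM in the shallowest and 0.0653 CPM in the deepest library. Il5 was listed at 11.2, 0.993 and 3.28 CPM in unlasered libraries and at no more than 0.646 CPM in lasered libraries. The groups did not overlap and unlasered library 1, with 229 reads, was far above the others, but Il5 reached 1 CPM in only 2 libraries and was not tested. Il5ra, its receptor chain, was at no more than 0.441 CPM in any library.

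Ptprz1, Sdc1 and Trem2 encode other proteins that IL-34 is reported to bind. Trem2 was abundant, between 731 and 1061 CPM without laser and between 870 and 1079 CPM with laser, with a log2 fold change of 0.12 and an adjusted p of 0.686. Sdc1 was between 4.76 and 15.0 CPM without laser and between 0.762 and 7.62 CPM with laser, with a log2 fold change of -1.37 and an adjusted p of 0.165. Ptprz1 was at no more than 2.30 CPM in any library and was not tested. Csf3, the G-CSF gene, was not analysed here.

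The relatives of Csf1r, the class III receptor tyrosine kinases and their ligands, gave 0 calls among 7 tested genes in limma, edgeR and DESeq2. Of them, 0, 1 and 2 had an unadjusted p under 0.05, against 3963 of all 17496 tested genes in limma. For Flt3 and Kit, lasered libraries alone met the filter, so the unadjusted counts are no independent support for a difference. Flt3, a receptor of dendritic cells and progenitors, was listed at 3.28, 0.642 and 2.67 CPM without laser and at 15.5, 27.5, 1.74 and 3.42 CPM with laser. Kit followed the same libraries, at 9.95 and 12.3 CPM in lasered libraries 1 and 2 and at no more than 1.76 CPM in the others. Both genes were thus high where the dendritic marker sum was high, a sum that includes Flt3.

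**Figure D5:**
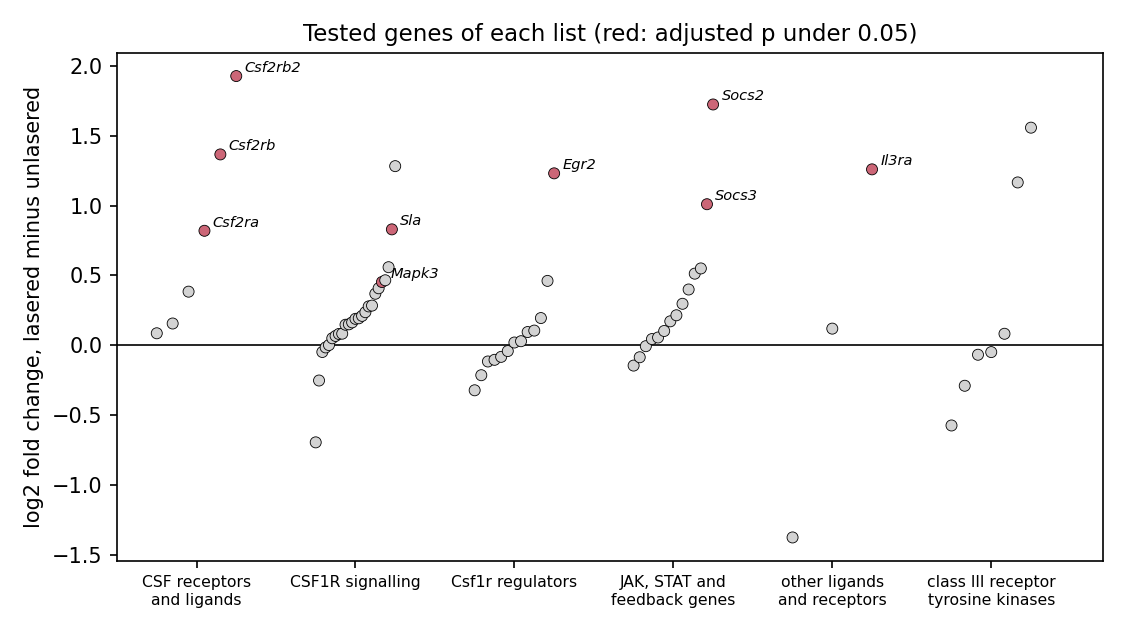
Log2 fold change, lasered minus unlasered, of each tested gene in the list of CSF receptors and ligands and in 5 lists of related genes, ordered by value within a list. Red points have an adjusted p under 0.05 in limma and are named. They are Csf2ra, Csf2rb, Csf2rb2, Sla, Mapk3, Egr2, Socs2, Socs3 and Il3ra, all above 0, while most genes of the lists lie near 0. Of the named genes, Egr2, Socs2 and Il3ra met the filter through lasered libraries alone.

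The genes whose levels followed each CSF gene most closely over the 7 libraries were listed as a description, among 10282 genes with a mean of at least 10 CPM. Smarca5, Sppl3 and Chpf2 were nearest to Csf1r, with Pearson r between 0.984 and 0.986 on the log2 scale. For Csf3r these were Gm26763, Pde3b and Zfr, and for Csf1 Isg20l2, Hibch and Trim28, the last with r between 0.940 and 0.972. Csf2ra was followed by Anapc5, Nmnat3 and Sfxn3, with r of 0.990, 0.972 and 0.966. Mgmt, Gpr137b-ps and Slc2a9 were nearest to Csf2rb, and Mgat5, Nceh1 and Gpr137b to Csf2rb2, with r between 0.985 and 0.994. With 7 libraries such values are common: between 31 and 283 genes had r over 0.9 with a given CSF gene.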

How the data were processed

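RNA-seq of sorted retinal microglia was available as 1 deposited table with 7 libraries. The authors checked reads with FastQC, removed adapters with cutadapt and duplicates with FastUniq, mapped with bowtie2 (GRCm38 per the submitters' processing notes) and counted with HTSeq over annotation version 90. Tool versions are not given in the sources used here. The columns of deposited values carry the heading TPM and hold CPM: each value is a whole multiple of 1 step per library, without division by length. Whole reads were recovered for 100% of the values (tolerance 0.1 reads). Genes that overlap have reads listed jointly, which applies to 4492 of the 40743 genes. Coordinates are from GENCODE M21.

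The main test was limma 3.58.1 (R 4.3.3, statmod 1.5.0), fitted on log2(CPM + 1) with a trend and robust moderation, lasered against unlasered. It covered the 17496 genes that reached 1 CPM in 3 or more libraries. Tests were two-sided, with Benjamini-Hochberg adjustment over all of these genes. A fold change on this scale understates the change of low genes. limma called 1213 genes (6.93%), with 3963 at an unadjusted p under 0.05. edgeR 4.0.16 (quasi-likelihood, TMM) on the recovered reads called 1266 and DESeq2 1.42.0 called 2318. Ratios within a library were compared with exact permutation tests. Coding sequences were aligned with biopython 1.88. Further steps used scipy 1.17.1, numpy 2.4.6, pandas 2.3.3 and matplotlib 3.10.9 under Python 3.11.15.

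Tested on simulated data with the group sizes and means of lasered against unlasered libraries, limma called 42.9% of 191 genes changed by a factor of 2 (3.53% of its calls were unchanged genes) and 88.0% of 192 genes changed by a factor of 4 (2.87%).

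The CSF genes, the 4 pathway lists and the marker lists were chosen with earlier results of these data known. Named genes are the CSF genes, pathway genes with an adjusted p under 0.05, all other cytokines and receptor chains of the families, and the 3 genes most correlated with each CSF gene. Src, Tyrobp, Spi1, Jak2, Stat5a, Stat5b, Ccr7, Ccr2, Fn1, Flt3, Kit and the neutrophil markers were named beside a result after their values were seen. Replicate numbers in the labels were not used as pairs in the main test (see the closing section). Alternatives were no filter on low values, a pseudocount of 0.1, a minimum mean of 10 reads, median-of-ratios scaling, edgeR, DESeq2, the replicate block, each library left out and, for ratios, the median. Leaving out lasered libraries 1 and 2 together was chosen after seeing the data.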

Additional observations from a re-analysis of the deposited data

Results flagged for a closer look

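The ratio of Csf1r to the sort gate genes Itgam and Ptprc was 19.8 in lasered library 4, while the other 3 lasered libraries were at 15.6, 15.6 and 15.9. The gap was larger than the 95% critical value of Dixon's test for 4 values. Of 23 groups of 4 libraries examined in this way, 1 stood out, and chance gives about 1 in 20. In the same library the Csf1r level was 10026 CPM, the highest of the lasered group, and the common beta chain genes Csf2rb and Csf2rb2 were the lowest of that group. The cause was not tested.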

How the results depend on the processing

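The 3 calls among the CSF genes were also made by edgeR, by DESeq2, with a pseudocount of 0.1, with a mean of at least 10 reads and with median-of-ratios scaling, which moved the median of all genes from -0.01 to 0.06. They were 0 of 6 with no filter on low values, where more genes were tested and the adjusted p was 0.0869 for Csf2ra, 0.0651 for Csf2rb and 0.0663 for Csf2rb2. All 3 kept a positive log2 fold change under every alternative run. Csf1r ranged from -0.018 (without unlasered replicate 2, a reversal) to 0.26 (without unlasered replicate 3). With each library left out in turn, the calls among CSF genes were between 0 and 2 and those among all genes between 264 and 1248. The lists ranged from 0 to 5 calls for CSF1R signalling, 0 to 1 for Csf1r regulators, 0 to 4 for JAK, STAT and feedback genes and 0 to 1 for other ligands and receptors.

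Among all genes, DESeq2 called 2318 and no filter left 385. CSF1R signalling had 4 calls with DESeq2 and with median-of-ratios scaling, 1 with edgeR and with a mean of at least 10 reads, and 0 with no filter. Csf1r regulators had 0 calls with edgeR, with a mean of at least 10 reads, with no filter and with a pseudocount of 0.1. With no filter, JAK, STAT and feedback genes had 1 call and other ligands and receptors 0. Without lasered libraries 1 and 2 there were 24 calls among all genes and 0 among the CSF genes and in each list, with fewer libraries in the fit. Both ratios kept their direction under each alternative run.

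The sources do not say whether libraries with the same replicate number belong together. The deviation from the group mean, correlated over genes between libraries of the same number, gave -0.18, -0.13 and -0.02. Such correlations cannot decide whether these libraries were handled together. With the replicate block, 3 genes were called in all and 0 among the CSF genes and in each list, with log2 fold changes of 0.73 for Csf2ra, 1.52 for Csf2rb and 2.13 for Csf2rb2. The block uses up degrees of freedom and leaves lasered library 4 without a partner.

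The depth limits Il34, at 11 to 29 reads, and sets an upper limit for Csf2 and Il3.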
